A study of Mus musculus with 8 samples.

Results

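The perilipins and the CIDE proteins are the coat and fusion proteins of the lipid droplet, the organelle in which hepatocytes store triglyceride. The genes followed here were Plin1, Plin2, Plin3, Plin4, Plin5, Cidea, Cideb and Cidec, 8 of the 45706 genes in the deposited table, taken by gene name. Of these, 6 were among the 14629 genes that passed a filter on low counts and were tested, and Plin1 and Cidea did not pass. The data were RNA sequencing of liver from female C57BL/6J mice aged 4 months, fed chow and then fasted overnight, with 4 WT mice and 4 SA/SA mice. SA/SA mice carried a whole-body CRISPR/Cas9 knock-in of the S155A change in Plin5, which replaces the serine phosphorylated by protein kinase A (PKA) with alanine in every tissue, and the methods state that the edit was checked by DNA sequencing in a founder. No gene was deleted and no transgene or Cre was used, and all the mice compared were fasted. The comparison asked which liver transcripts differ in fasted mice when this serine of PLIN5 cannot be phosphorylated. The labels gave each mouse an animal number, and in each genotype replicates 1 and 4 had numbers under 200 (the low animal series, called the low-numbered mice) and replicates 2 and 3 had numbers over 800 (the high series, called the high-numbered mice). The labels do not say what the numbers stand for.

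Perilipins cover the droplet surface and govern when lipases reach the triglyceride inside. PLIN1 is the perilipin of adipocytes, PLIN2 is the main droplet coat of hepatocytes, PLIN3 and PLIN4 move onto droplets from the cytosol, and PLIN5 is the perilipin of tissues that oxidize fatty acids, where it tethers droplets to mitochondria. CIDE proteins act at the contacts between droplets. CIDEA and CIDEC (FSP27) transfer lipid from small droplets to large ones, and CIDEB, the CIDE protein of the healthy liver, takes part in the lipidation of VLDL. Fasting brings fatty acids from adipose tissue to the liver, and Plin2, Plin5 and Cidec are known targets of the fatty acid receptors of the PPAR family.

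The edited codon is shown first, because it is the only designed difference between the groups. In GRCm38 with the GENCODE M21 annotation, the serine codon that S155A replaces, 1 of the 463 codons of Plin5, lay at chr17:56115193-56115195 on the minus strand, in exon 6 of 9 and inside the coding sequence. The reference sequence at chr17:56115163-56115225 is printed 5′ to 3′ along the transcript, with the serine codon in capitals.
Plin5 reference sequence: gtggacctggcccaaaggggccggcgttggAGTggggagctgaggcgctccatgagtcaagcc
A change of 1 codon leaves a transcript that gene counts cannot tell from WT, so the counts of Plin5 do not check the genotype labels.

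The libraries held between 39709785 and 54540864 estimated counts, the lowest in SA/SA replicate 3. Levels are given as CPM, each count as its share of the library scaled by TMM to a common total, and fold changes are on the log2 scale, SA/SA relative to WT. The liver label fitted its markers, with the 9 hepatocyte markers in the table summing to between 102353 and 143514 CPM. Among the 10 adipocyte markers, Lep and Ucp1 had no count in any mouse and Adipoq averaged 0.173 CPM in WT mice and 0.0855 in SA/SA mice. The summed adipocyte markers ranged from 341 to 1124 CPM in WT and from 357 to 929 CPM in SA/SA, and nearly all of that was Car3, which averaged 694 CPM and is also expressed in liver. The 10 muscle and heart markers summed to at most 2.08 CPM, with Acta1, Myh6, Myh1, Myh4 and Mb at 0 in all mice. Stellate cell markers summed to 275 to 357 CPM in WT and 129 to 283 in SA/SA, and 0 of 10 were higher in SA/SA. All 10 Kupffer cell and macrophage markers were higher in SA/SA, with sums of 256 to 512 CPM in WT and 272 to 570 in SA/SA. Lymphocyte and plasma cell markers summed to at most 49.9 CPM in WT and reached 2080 CPM in SA/SA replicate 3. The part of these markers in the members' values was not tested, and in bulk liver fewer cells of a type and less RNA per cell cannot be told apart.

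Per base of transcript, Plin2 was the most abundant member in the fasted liver, followed by Cideb, Plin5, Cidec, Plin4 and Plin3. In WT mice Plin2 stood at 738 ± 38.7 CPM per kb (SD, n = 4), which ranked 95 among 13147 protein-coding genes. Cideb followed at 280 ± 24.2 CPM per kb, and Plin5 at 104 ± 16.3. Cidec stood at 40.5 ± 19.3 CPM per kb, Plin4 at 14.8 ± 5.01 and Plin3 at 10.9 ± 1.66. The ranges over the WT mice of neighbours in this order did not overlap except for Plin4 (10.5 to 21.7 CPM per kb) and Plin3 (8.62 to 12.6). In SA/SA mice the order of the means was the same, from 778 ± 322 CPM per kb for Plin2 and 284 ± 17.7 for Cideb to 165 ± 59.2 for Plin5, then Cidec, and 13.7 ± 12.0 for Plin4 and 11.1 ± 0.852 for Plin3. There the ranges of Cidec (21.1 to 76.0 CPM per kb) and Plin4 (6.25 to 31.6) overlapped as well. These are levels per length of the longest coding transcript, and they carry no test. With all exon bases of a gene as its length, Plin2 stood at 396 CPM per kb in WT and 418 in SA/SA, and the order of the means was the same.

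**Figure D1:**
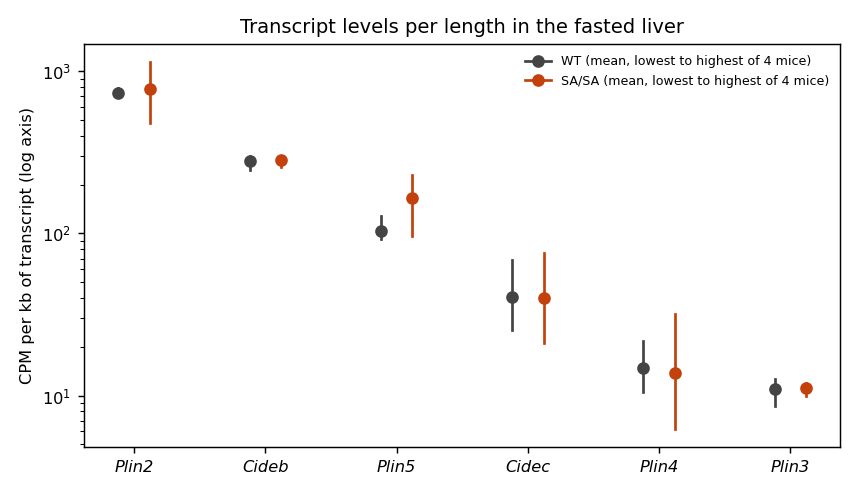
Mean level of each member that passed the filter, in CPM per kb of transcript on a log axis, in WT and SA/SA. Lines run from the lowest to the highest of the 4 mice of each genotype. Plin2 lay highest, at a mean of 738 CPM per kb in WT, and Plin3 lowest, at 10.9.

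The adipose members were near the limit of detection. Plin1, the adipocyte perilipin (chr7:79720218-79732903, minus strand), had 1, 0, 9 and 0 counts in WT replicates 1 to 4 and 3, 0, 0 and 3 counts in the SA/SA replicates, 16 counts in all. Cidea, typical of brown fat, had 7, 3, 0 and 6 counts in the WT mice and 2, 0, 1 and 5 in the SA/SA mice, 24 in all. A library with no count allows a level of up to 0.0550 to 0.0755 CPM, depending on its depth, for counting error alone. No mouse exceeded 0.189 CPM of Plin1 or 0.131 CPM of Cidea, and neither gene was tested. Cidea overlaps the antisense transcript B430212C06Rik over 500 bases, and which strand setting was used for counting is not given in the sources used here.

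No tested member differed between SA/SA and WT after correction over all 14629 genes. In edgeR's quasi-likelihood test, 0 of 6 tested members and 0% of all genes reached an adjusted p under 0.05. Before adjustment, 497 genes or 3.40% of those tested had a p under 0.05, and 1 of them was a member, Plin5. DESeq2 called 6 genes of the whole table (0.0411%) and limma-voom called none, with 466 genes at an unadjusted p under 0.05, and no member was among the calls. The log2 fold change lay above 0 in 4 of 6 tested members, beside 48.8% of all genes, and its median was 0.02 over the tested members and -0.005 over all genes. The ranges of the groups overlapped for every tested member, whereas 2.30% of all genes did not overlap.

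Plin5, the gene that carries the edit (ENSMUSG00000011305, chr17:56111601-56117596, minus strand), had the largest fold change of the tested members. Its level was 254, 194, 183 and 194 CPM in WT replicates 1 to 4 and 457, 276, 192 and 386 CPM in SA/SA replicates 1 to 4. SA/SA replicates 1 and 4 stood above every WT mouse, SA/SA replicate 2 stood above all WT mice as well, and SA/SA replicate 3 lay within the WT range. The group means were 206 ± 32.3 CPM in WT and 328 ± 118 CPM in SA/SA (SD, n = 4). By edgeR the log2 fold change was 0.67 (SE 0.24, 95% interval 0.13 to 1.21), a ratio of 1.59 with an interval of 1.10 to 2.31, at an adjusted p of 0.993. The unadjusted edgeR p was 0.0193, rank 162 among the genes tested, and the two-sided exact permutation test of mean log2 CPM gave p = 0.114, where 0.0286 is the smallest p that 4 against 4 mice can give. The difference on the log2 scale was 0.92 among the low-numbered mice and 0.29 among the high-numbered mice. With SA/SA replicate 1 left out the fold change was 0.47, and with SA/SA replicate 3 left out it was 0.86.

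Plin2, the hepatocyte droplet coat (ENSMUSG00000028494, chr4:86648386-86670060, minus strand), was tight in WT and spread widely in SA/SA. The WT mice had 1368, 1318, 1391 and 1492 CPM in replicates 1 to 4, and the SA/SA mice 2145, 1011, 903 and 1820 CPM. SA/SA replicates 1 and 4 were above every WT mouse and SA/SA replicates 2 and 3 were below every WT mouse. The means were 1392 ± 73.2 and 1470 ± 608 CPM (SD, n = 4), so the coefficient of variation was 5.25% in WT and 41.4% in SA/SA. The log2 fold change was 0.078 (SE 0.25, 95% interval -0.49 to 0.64, edgeR adjusted p = 0.996, exact permutation p = 0.971). Its sign turned with the processing, to -0.022 by limma-voom and to -0.015 with the animal series as a block.

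Plin4 and Plin3, the remaining tested perilipins, showed unlike spreads. Plin4 (ENSMUSG00000002831, chr17:56100591-56109803, minus strand), best known from adipocytes and muscle, had 125, 88.1, 68.0 and 60.7 CPM in WT replicates 1 to 4 and 182, 45.6, 36.0 and 52.5 CPM in SA/SA replicates 1 to 4. SA/SA replicate 1 was the highest of the 8 mice, and the other SA/SA mice were below every WT mouse. The means were 85.5 ± 28.9 and 78.9 ± 68.8 CPM (SD, n = 4), and the log2 fold change was -0.11 (SE 0.48, 95% interval -1.18 to 0.95, edgeR adjusted p = 0.996). Without SA/SA replicate 1 it was -0.94, at an unadjusted p of 0.00485 and an adjusted p of 0.798 in edgeR, and without WT replicate 1 it was 0.13. Plin4 overlaps Hdgfl2 on the opposite strand over 17 bases, and Hdgfl2 had a log2 fold change of 0.12.

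Plin3 (ENSMUSG00000024197, chr17:56277476-56292873, minus strand), the cytosolic perilipin also known as TIP47, had 31.4, 45.9, 40.6 and 41.1 CPM in the WT mice and 36.4, 43.6, 39.6 and 42.0 CPM in the SA/SA mice. All SA/SA values fell inside the WT range. The log2 fold change was 0.023 (SE 0.12, 95% interval -0.25 to 0.30, edgeR adjusted p = 0.998). With library size alone as the scaling the value was -0.018.

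Of the CIDE genes, Cideb held steady over the mice and Cidec did not. Cideb (ENSMUSG00000022219, chr14:55754050-55758458, minus strand) had 336, 359, 365 and 300 CPM in WT replicates 1 to 4 and 313, 361, 352 and 349 CPM in SA/SA replicates 1 to 4. The SA/SA mice all lay within the WT range, and the log2 fold change was 0.017 (SE 0.10, 95% interval -0.21 to 0.24, edgeR adjusted p = 0.999). With library size alone as the scaling it was -0.023. Cideb shares 1451 bases with Nop9 on the opposite strand, whose WT mean was 15.4 CPM.

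Cidec (ENSMUSG00000030278, chr6:113424634-113435760, minus strand), whose protein builds large droplets, had 118, 43.4, 56.8 and 60.0 CPM in the WT mice and 131, 40.2, 36.2 and 68.0 CPM in the SA/SA mice. Replicate 1 was the highest mouse of each genotype, and the ranges overlapped over most of their width. The means were 69.6 ± 33.2 and 68.8 ± 43.6 CPM (SD, n = 4), with a log2 fold change of -0.017 (SE 0.43, 95% interval -0.96 to 0.93, exact permutation p = 0.857). Without SA/SA replicate 1 this was -0.53 and without WT replicate 1 it was 0.37.

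**Figure D2:**
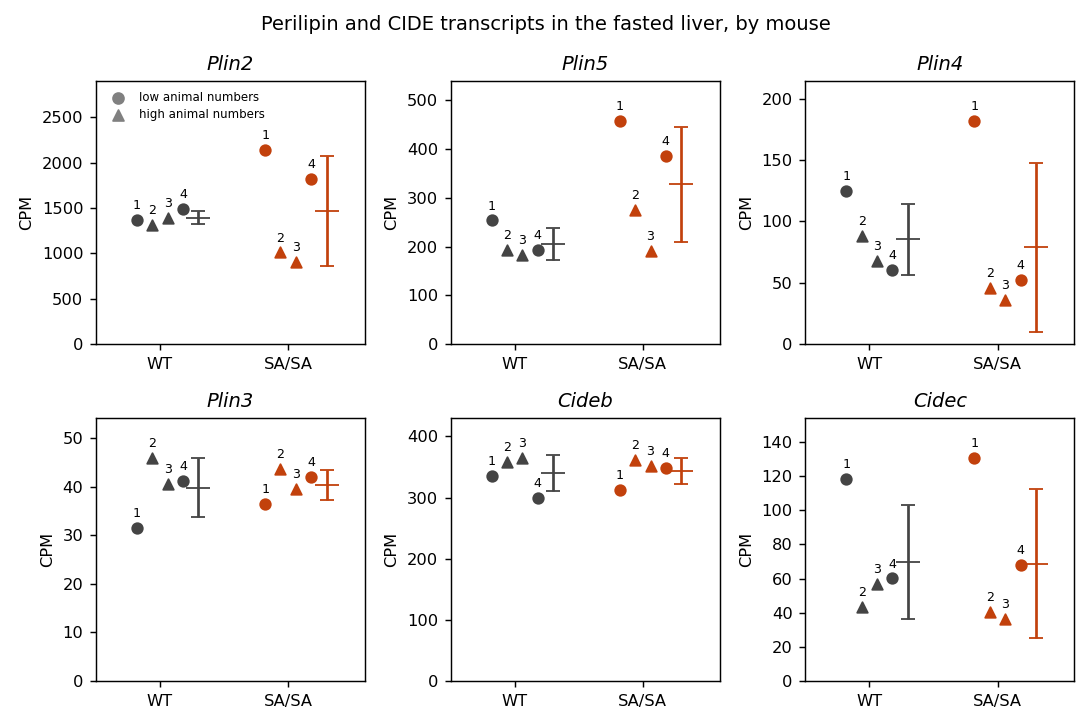
CPM of each tested member in every mouse, by genotype and animal series, with the group mean and SD. Plin2 ran from 1318 to 1492 CPM in WT and from 903 to 2145 CPM in SA/SA, and the groups overlapped for every member.

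**Figure D3:**
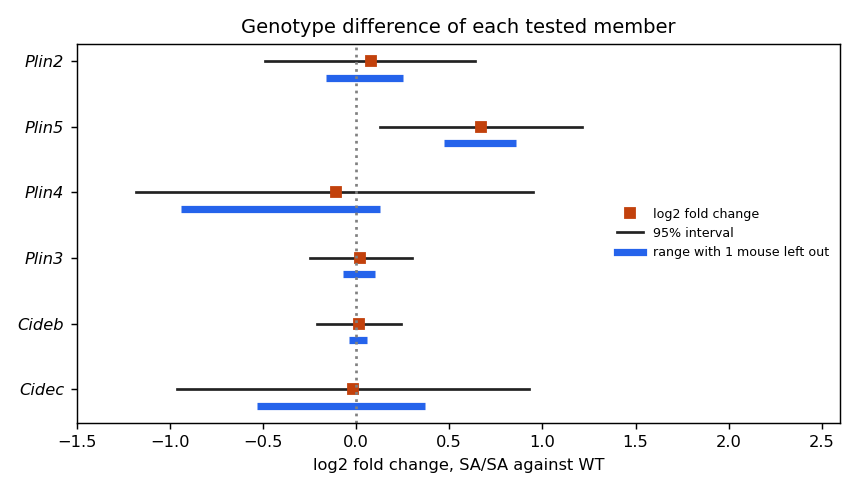
Log2 fold change of each tested member, SA/SA relative to WT, with its 95% interval from edgeR. The interval of Plin5 ran from 0.13 to 1.21, and the intervals of the other members included 0.

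The SA/SA mice split by animal number for most of the tested members. Both low-numbered SA/SA mice stood above both high-numbered ones for 4 of 6 tested members, Plin2, Plin4, Plin5 and Cidec, beside 26.4% of all genes. On the log2 scale the low-numbered less the high-numbered SA/SA mice was 1.05 for Plin2, 0.87 for Plin5, 1.27 for Plin4 and 1.30 for Cidec. Within WT the same difference was 0.077 for Plin2, 0.24 for Plin5, 0.17 for Plin4 and 0.76 for Cidec. For Cidec both low-numbered WT mice also stood above both high-numbered WT mice. Plin3 and Cideb did not separate the SA/SA mice this way.

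The genotype by animal series interaction, the SA/SA minus WT difference of the high-numbered mice less that of the low-numbered mice, was below 0 for all 6 tested members, beside 50.9% of all genes. Its median was -0.57 over the members and -0.0092 over all genes. By edgeR, 0 of 6 members and 0% of all genes passed an adjusted p under 0.05, with 1 member and 11.1% of genes at an unadjusted p under 0.05. That member was Plin2. Its SA/SA minus WT difference was 0.47 among the low-numbered mice and -0.50 among the high-numbered mice. The interaction was -0.97 (SE 0.20, 95% interval -1.42 to -0.53, edgeR adjusted p = 0.220), which ranked 60 by p among all genes tested. The arrangement seen for Plin2, with the SA/SA mice above both WT mice at low numbers and below both at high numbers, was found in 4.72% of all genes. The mirror of that pattern was seen in 4.76%.

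The other members had wider intervals for this difference. The interaction was -0.60 for Plin5 (95% interval -1.25 to 0.049, edgeR adjusted p = 0.481) and -1.27 for Plin4 (-2.94 to 0.40, edgeR adjusted p = 0.567). For Cidec it was -0.55 (-1.70 to 0.61, edgeR adjusted p = 0.736), and for Plin3 and Cideb it was -0.17 and -0.078. Plin4 rested on 1 mouse, since its interaction was -0.11 without SA/SA replicate 1, and that of Cidec was 0.00028 without the same mouse. Hepatocyte markers split the other way from these members, with median SA/SA minus WT differences of -0.18 at low numbers and 0.41 at high numbers. The same medians were -0.49 and 0.86 for Kupffer cell and macrophage markers, -0.13 and -0.62 for stellate cell markers, and 0.17 and 1.30 for lymphocyte and plasma cell markers. Interactions were below 0 for 1 of 9 hepatocyte, 0 of 10 Kupffer cell, 8 of 10 stellate cell and 2 of 13 lymphocyte markers, beside 50.9% of all genes. In the same order, 4, 7, 1 and 4 markers had an unadjusted edgeR p under 0.05, beside 11.1% of all genes. Their part in the members' split was not tested.

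**Figure D4:**
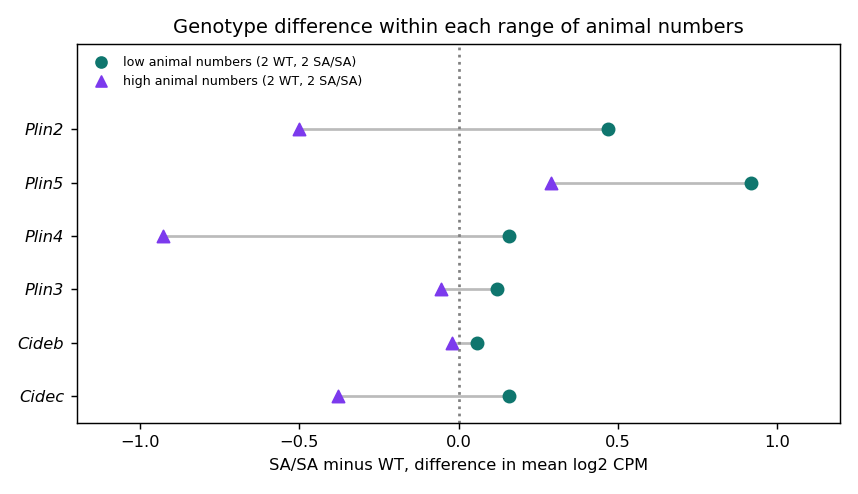
Log2 difference, SA/SA minus WT, of each tested member within the low-numbered and the high-numbered mice, with 2 mice of each genotype in each. Plin2 stood at 0.47 and -0.50, while Plin5 was above 0 in both, at 0.92 and 0.29.

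Although both genes were spread over the SA/SA mice, the proportion of Plin5 to Plin2 was not. On the per-kb scale the ratio was 0.176, 0.140, 0.125 and 0.123 in WT replicates 1 to 4 and 0.203, 0.259, 0.202 and 0.202 in SA/SA replicates 1 to 4. Every SA/SA mouse lay above every WT mouse. The means were 0.141 ± 0.0247 in WT and 0.216 ± 0.0285 in SA/SA (SD, n = 4), a log2 difference of 0.62, which was 0.46 at low animal numbers and 0.79 at high ones. The level of the ratio rests on the length used, and with all exon bases it was 0.250 ± 0.0437 in WT and 0.383 ± 0.0505 in SA/SA, with the same log2 difference. Taking each gene as its ratio to Plin2, 0.0820% of the other genes tested were without overlap and higher in SA/SA, 12 genes with Plin5 among them, and 0.554% were without overlap and lower. The wide spread of Plin2 in SA/SA (coefficient of variation 41.4%) passes into every such ratio and makes overlap more likely. Before division by Plin2, 2.30% of all genes were without overlap in either direction. The shares of ratios therefore do not measure how rare the Plin5 ratio is. The ratio was formed after the values of both genes were known, so it is given as a description with no test.

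Plin5 made up 12.0 ± 1.76% of the summed perilipin level per kb in WT mice (range 10.7 to 14.5%) and 17.3 ± 1.80% in SA/SA mice (lowest 16.3%). With all exon bases as the length these shares were 18.9 ± 2.47% and 26.5 ± 2.39%. By transcript length the share of Plin2 was 85.1 ± 2.19% in WT and 80.1 ± 2.03% in SA/SA, and Plin3 and Plin4 each held at most 2.46% in any mouse. By all exon bases the highest share of Plin4 in a mouse was 4.00% and that of Plin3 2.86%. The sum over all perilipins was 882, 824, 852 and 910 CPM per kb in the WT mice and 1408, 694, 592 and 1179 in the SA/SA mice, and so followed the split of Plin2. Among the CIDE genes, Cideb held 87.5 ± 5.26% of the summed level in WT and 87.8 ± 7.42% in SA/SA, and Cidec nearly all of the rest.

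**Figure D5:**
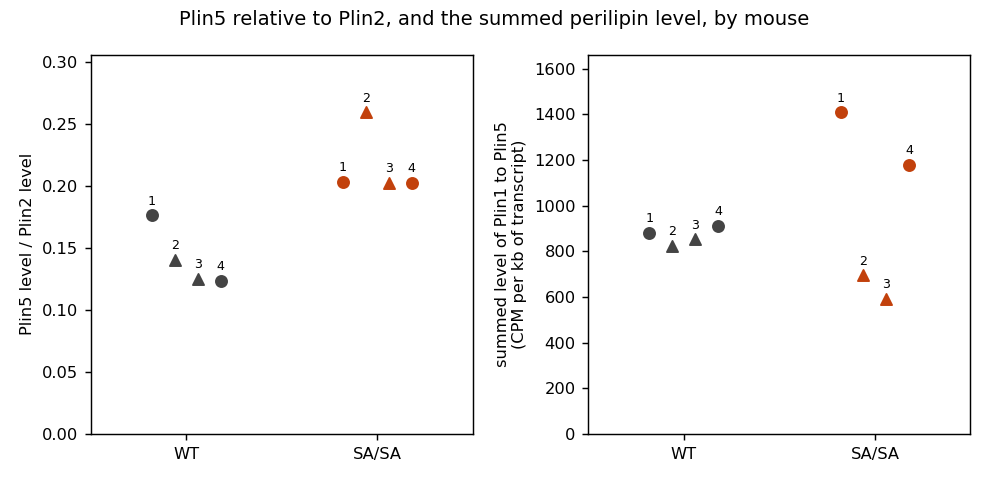
Ratio of Plin5 to Plin2 in CPM per kb of transcript, in each mouse, marked by genotype and animal series. The WT mice ran from 0.123 to 0.176 and the SA/SA mice from 0.202 to 0.259.

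How the members varied together was examined over the 8 mice, with 15 pairs of tested members and exact permutation p-values. No pair reached a Benjamini-Hochberg adjusted p under 0.05. The closest pair was Plin4 and Cidec, with a Pearson r of 0.85 (exact permutation p = 0.00885, adjusted p = 0.116) and a Spearman rho of 0.76 (exact permutation p = 0.0368, adjusted p = 0.276), and r was 0.36 without the 2 mice farthest from the median of Plin4. Plin3 and Cidec ran in opposite directions, with an r of -0.77 (exact permutation p = 0.0208, adjusted p = 0.116). Their rho was -0.50 (exact permutation p = 0.216, adjusted p = 0.456), and r was -0.69 without the 2 mice farthest from the median of Plin3. Plin2 and Cidec had an r of 0.77 (exact permutation p = 0.0233, adjusted p = 0.116) and a rho of 0.86 (exact permutation p = 0.0107, adjusted p = 0.161), and r was 0.46 without the 2 farthest mice. Plin2 and Plin5 had an r of 0.66 (exact permutation p = 0.0710, adjusted p = 0.213). When each gene was centred within its genotype, 4 pairs passed, Plin5 with Cidec (r = 0.88), Plin2 with Plin5 (0.88), Plin4 with Cidec (0.86) and Plin4 with Plin5 (0.82). Permutation of centred values is approximate and not exact. Without centring and without the 2 farthest mice, r for these pairs was 0.29, 0.29, 0.36 and -0.27. SA/SA replicate 1 was among the mice left out each time. The points share library and animal series, and the 4 SA/SA mice split by that series.

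Among 7438 tested genes with a mean of at least 10 CPM, the genes whose log2 CPM followed Plin5 most closely over the 8 mice were Ddx56 (r = 0.972), Supt5 (0.954), Bysl (0.944), Srsf2 (0.927) and Eif3j1 (0.925). Plin2 ranked 321 in that order and Cidec 427. The genes closest to Plin2 were Tmem11 (r = 0.984), Nt5c2 (0.976), Nagpa (0.974), Atn1 (0.968) and Crebzf (0.966). Cidec ranked 464 there, Plin4 776 and Plin5 864. These genes were picked for their likeness over the same mice, and the values are a description.

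The sequences before the start sites of the members were read for nuclear receptor motifs. PPARs bind a direct repeat of AGGTCA with 1 base between (DR1). Windows of 250 bases upstream of RefSeq start sites in GRCm38.p6 were read for 7 of 8 members, and Cidea was not searched. On either strand, the single element AGGTCA was in 14.0% of the 32851 windows of all genes, AGGTCANAGGTCA with at most 2 mismatches in 3.24%, and the cAMP response element TGACGTCA in 1.55%. The Plin2 window at chr4:86670060-86670309 held 1 DR1 match, which contains an exact AGGTCA read on the strand opposite the gene. The Plin5 window at chr17:56117549-56117798 held 1 AGGTCA and no DR1 match. Both are printed 5′ to 3′ along the gene, with the matches in capitals.
Plin2 upstream: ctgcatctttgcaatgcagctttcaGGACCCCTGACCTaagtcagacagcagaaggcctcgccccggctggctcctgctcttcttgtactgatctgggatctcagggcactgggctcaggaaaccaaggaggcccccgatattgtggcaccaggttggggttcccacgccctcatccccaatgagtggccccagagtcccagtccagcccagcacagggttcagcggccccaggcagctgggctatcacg
Plin5 upstream: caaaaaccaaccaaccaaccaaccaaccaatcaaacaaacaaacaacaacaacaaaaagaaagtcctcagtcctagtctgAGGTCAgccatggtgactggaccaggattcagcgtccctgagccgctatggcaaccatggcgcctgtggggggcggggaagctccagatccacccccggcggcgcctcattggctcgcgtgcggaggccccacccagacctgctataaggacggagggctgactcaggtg
The windows of Plin1, Plin3, Plin4, Cideb and Cidec and the second window of Plin5 held none of the 3 motifs. None of the 7 members searched held TGACGTCA. A match is a match of letters in this window only.

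The edited gene lies among other genes, Plin4 and Plin3 included, whose starts are 7.8 and 175.3 kb from that of Plin5. Of 32 annotated genes with a start within 250 kb of it, 21 were tested, and 0 passed an adjusted p under 0.05 in edgeR. Of these, 14 had a fold change above 0, beside 48.8% of all genes. The median was 0.082 on the log2 scale, and the values ran from -0.54 to 0.47. Sema6b, at 5.12 CPM in WT and 7.10 in SA/SA (log2 fold change 0.47), was the 1 gene of the 21 with an unadjusted edgeR p under 0.05, beside 3.40% of all genes. Zfp119b had a log2 fold change of -0.54 and Ccdc94 of 0.27. Lrg1, which encodes a secreted glycoprotein and starts 4.4 kb from Plin5, averaged 904 CPM in WT and 784 in SA/SA, a log2 fold change of -0.21. The log2 difference of Lrg1 was -0.88 among the low-numbered mice and 0.53 among the high-numbered mice.

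The partners of the perilipins were examined as 5 lists, none of which had a gene at an adjusted p under 0.05 in edgeR, where the smallest adjusted p was 0.993. Over all genes tested, 48.8% were higher in SA/SA. Of 35 tested droplet assembly and surface genes, 17 were higher in SA/SA and the median log2 fold change was -0.0025. Dgat1, which makes triglyceride, averaged 34.1 ± 2.75 CPM in WT and 41.5 ± 2.43 in SA/SA (log2 fold change 0.28). Its groups did not overlap, as held for 2.30% of all genes. The exact permutation p of Dgat1 was 0.0286, the smallest that 4 against 4 mice can give. Dgat1, Lss and no other gene of this list had an unadjusted edgeR p under 0.05, beside 3.40% of all genes. Lss, an enzyme of sterol synthesis, averaged 18.6 and 32.0 CPM (0.78), with overlapping groups. Its log2 difference was 0.056 among the low-numbered mice and 1.31 among the high-numbered mice. Vps13c, a lipid transfer protein, averaged 23.2 and 19.1 CPM (-0.28).

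Of 15 lipolysis and lipophagy genes, 6 were higher in SA/SA and the median was -0.036, with Pnpla2, the triglyceride lipase ATGL that PLIN5 holds in check, at 133 to 170 CPM in WT and 147 to 200 CPM in SA/SA (log2 fold change 0.16). Hspa8, a chaperone, had a log2 fold change of 0.23 and the hydrolase Aadac one of -0.14. Of 18 genes of PKA and its hormone receptors, 5 were higher in SA/SA and the median was -0.13. Pde3b, which breaks down the cAMP that activates PKA, averaged 38.5 ± 7.57 and 28.8 ± 3.51 CPM (-0.42). The anchoring protein gene Akap13 had a log2 fold change of -0.26 and Pde4b one of -0.74.

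Of 20 transcription regulators of these genes, 13 were higher in SA/SA and the median was 0.10. Ppara averaged 96.3 ± 13.2 CPM in WT and 93.3 ± 5.48 in SA/SA, and Pparg 16.0 ± 2.53 and 14.5 ± 1.43. Cebpb had a log2 fold change of 0.67, Esrrg of -0.52 and Ncoa1 of -0.18. Of these, only the groups of Ncoa1 did not overlap, beside 2.30% of all genes. The last list, 30 PPARa targets of the fasted liver, had 16 higher in SA/SA and a median of 0.017, with Angptl4 at 0.21 and Cd36 at -0.22. Its median difference was 0.21 at low animal numbers and -0.27 at high ones, and the interaction was below 0 for 27 of 30 genes, beside 50.9% of all genes. Of those 27, 13 had an unadjusted edgeR p under 0.05, beside 11.1% of all genes in either direction, and 0 passed after adjustment. Centred on its own mean, the average log2 level of this list was 0.23, -0.19, -0.40 and 0.24 in SA/SA replicates 1 to 4, split by animal number as for Plin2, and -0.14, 0.20, 0.034 and 0.029 in the WT replicates.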

How the data were processed

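RNA sequencing libraries were made from liver of 4 WT and 4 SA/SA mice with a stranded mRNA kit and read as 100 base pairs from both ends. The authors deposited 1 table of estimated counts per gene, length-scaled by its name and made with salmon. The processing notes name GRCm38, bcl2fastq, STAR, SAMtools, MultiQC and DESeq2, without versions, and the strand setting is not given in the sources used here. Counts were rounded, filtered with filterByExpr and scaled by TMM in edgeR 4.0.16 (R 4.3.3), leaving 14629 genes. The quasi-likelihood test compared the genotypes, with Benjamini-Hochberg adjustment over all genes tested and a threshold of 0.05, and again with a genotype by animal series interaction. DESeq2 1.42.0 and limma 3.58.1 (voom) served as alternatives, and the steps were tested on simulated data. Single genes were also compared by exact permutation of log2 CPM (prior count 2). Total counts per library were 39709785 to 54540864, the 95% intervals from edgeR carry the spread between mice, and the floors of 3 counts cover counting error only. No pair of libraries was a duplicate. The labels call the mice biological replicates.

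The genes named were the 8 members, the 3 genes with the smallest unadjusted p of each list and of the genes within 250 kb of Plin5, any that passed the adjusted threshold, genes that overlap a member, Lrg1, the 5 genes most like Plin5 and the 5 most like Plin2, and markers at 0 in all libraries or the most abundant of a list. Ppara, Pparg, Ppargc1a and Adipoq stand outside these rules or were added once levels were known. A gene that this rule named is not reported here. The members and lists were chosen with earlier results of these data known. Annotation was GENCODE M21, and upstream windows came from RefSeq (GRCm38.p6). Ccdc94 is the table's name for Yju2.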

Additional observations from a re-analysis of the deposited data

Results flagged for a closer look

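Among 40 genes searched in 80 groups of 4 mice, 5 groups had 1 mouse set apart from the others by a gap above Dixon's 95% critical value of 0.829, where chance gives about 4.00. These gaps are on the CPM scale. On log2 CPM those of Plin4 and Plin5 are a smaller part of the range, so the flags rest on the scale used. Plin4 was 182 CPM in SA/SA replicate 1 and 36.0 to 52.5 in the other SA/SA mice. Plin5 was 254 CPM in WT replicate 1 and 183 to 194 in the other WT mice. Ppargc1a, the PGC1a coactivator, was 29.5 CPM in SA/SA replicate 4 and 6.08 to 8.21 in the other SA/SA mice. Ddx56 was 38.1 CPM in WT replicate 1 against 31.9 to 32.7, and Eif3j1 was 49.1 against 43.0 to 43.9, and both were picked for their likeness to Plin5.

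For 6 genes both SA/SA mice moved one way from both WT mice among the low-numbered mice and the other way among the high-numbered mice. Plin2 had an interaction of -0.97 on the log2 scale, from differences of 0.47 and -0.50 in the low-numbered and high-numbered mice (edgeR adjusted p = 0.220). The others were the genes most like Plin2, so they are no separate evidence. Their interactions were -0.65 for Tmem11, -0.73 for Nt5c2, -0.26 for Nagpa, -0.88 for Atn1 and -1.0 for Crebzf, with edgeR adjusted p-values of 0.302, 0.282, 0.625, 0.253 and 0.257.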

How the results depend on the processing

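No member was called under any alternative run. The runs used limma-voom, DESeq2, DESeq2 size factors, library size alone, a block, or each mouse left out. Others used no filter, or a filter of at least 10 counts in at least 4 mice, which kept 14677 genes. Of 96 member fold changes under these alternatives 78 kept their sign and 18 turned, and of 60 interactions 56 kept it and 4 turned. DESeq2 called 6 genes of the whole table, against 0 by edgeR. The fold change turned for Plin2 with limma-voom (-0.022), with a replicate block (-0.018) and with an animal series block (-0.015), and with library size alone for Plin3 (-0.018) and Cideb (-0.023). Leaving out each mouse in turn gave -0.16 to 0.25 for Plin2, -0.07 to 0.10 for Plin3, -0.94 to 0.13 for Plin4, 0.47 to 0.86 for Plin5, -0.039 to 0.059 for Cideb and -0.53 to 0.37 for Cidec. For the interaction, leave-one-out fits chosen after the data were seen gave -1.09 to -0.85 for Plin2, -0.38 to 0.018 for Plin3, -1.90 to -0.11 for Plin4, -0.87 to -0.36 for Plin5, -0.15 to 0.0038 for Cideb and -1.11 to 0.00028 for Cidec. The cause was not tested. For Plin5 the fold change had an edgeR, DESeq2 or limma adjusted p of 0.798 or more over 16 alternatives. Centring within genotype let 4 correlations pass, against 0, with p-values that are only approximate. With all exon bases as the length, the share of Plin5 was 18.9% in WT and 26.5% in SA/SA. With no filter, Plin1 and Cidea had fitted log2 fold changes of -0.73 and -0.88, which are no bounds at these counts.

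Same-numbered mice of the 2 genotypes had correlations of their deviations of 0.0565, 0.166, -0.111 and 0.129 over 14629 genes. SA/SA replicates 1 and 2 correlated best with the WT mouse of their own number, and SA/SA replicates 3 and 4 did not. Such values cannot show whether the mice were paired, and the mice were treated as unpaired in the main test. With the replicate block 0 genes were called, and Plin5 had a log2 fold change of 0.61 at an adjusted p of 0.967 in edgeR.

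With 4 mice a group, the 95% intervals of Plin2, Plin4, Plin5 and Cidec each span more than 1 log2 unit. Depth limits only Plin1 and Cidea.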
